A study of Mus musculus with 11 samples.

Results

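The genes described here are metallothioneins and antioxidant enzymes of the mouse heart. There are 10 of them among the 46517 genes in the table, chosen by name: the metallothioneins Mt1 and Mt2, heme oxygenase Hmox1, glutathione peroxidase Gpx3, quinone reductase Nqo1, thioredoxin reductase Txnrd1, the superoxide dismutases Sod1, Sod2 and Sod3, and catalase, Cat. All 10 had enough counts to be tested, among 14619 tested genes.

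The study asked how loss of Lmnb2, which encodes lamin B2 of the nuclear lamina, alters the cardiac response to pressure load. RNA was sequenced in bulk from ventricular myocardium of mice that had sham surgery or a surgical narrowing of the aorta (transverse aortic constriction, TAC) at 10 to 12 weeks of age. Of 11 mice, 5 had the sham operation (2 WT and 3 KO) and 6 had TAC (3 WT and 3 KO), with 1 library each. KO mice carried floxed Lmnb2 alleles and Tnnt2-Cre, and controls carried Tnnt2-Cre without the floxed alleles, so every mouse in the design had the Cre. The Tnnt2 promoter drives Cre in cardiomyocytes, so other cells of the myocardium keep Lmnb2. The label of WT sham 2 gives the genotype as WT, and those of the other controls give Lmnb2 WT. No source used here gives the strain or the interval from surgery to sampling.

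Metallothioneins are small cysteine-rich proteins that bind zinc and copper and can scavenge oxidants. Their genes are induced by metals through the transcription factor MTF1, which binds metal response elements, and by glucocorticoids and inflammatory cytokines. Hmox1, Nqo1 and Txnrd1 are known targets of NRF2, a transcription factor held inactive by KEAP1 until oxidants or electrophiles are present, while superoxide dismutases, catalase and glutathione peroxidases clear superoxide and peroxides.

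Levels are given as CPM, each gene's share of the counts of its library, scaled by TMM, which corrects for differences in RNA composition, and the values of a group follow the replicate numbers. The deleted gene, Lmnb2, stood at 4.44 and 3.86 CPM among WT sham mice, at 0.649, 1.81 and 2.43 among KO sham mice, at 2.86, 2.16 and 6.70 among WT TAC mice, and at 9.72, 3.24 and 4.46 among KO TAC mice. The KO sham libraries were all below WT sham, whereas KO and WT overlapped after TAC, so genotype below is the genotype on the label. Total counts were 1.48e+07 to 1.73e+07 per library. The summed level of 10 cardiomyocyte markers was 56008 to 76765 CPM in sham and 36760 to 53297 in TAC, that of 10 fibroblast markers 754 to 1100 and 3106 to 8782, and that of 12 macrophage and monocyte markers 252 to 462 and 459 to 2505. Over both genotypes 4 of 10 cardiomyocyte markers were called lower with surgery, against 8.96% of all tested genes. In contrast, 6 of 10 fibroblast and 10 of 12 macrophage and monocyte markers were called higher, against 10.6%. Among smooth muscle and pericyte markers 3 of 10 were called higher and 1 lower. Red blood cell markers had 1 of 8 called higher and adipocyte markers 1 of 4 lower. Endothelial and neutrophil markers had 0 of 10 and 0 of 7 called. The part of these markers in the changes below was not tested. In bulk RNA, fewer cells of a type and less RNA per cell cannot be told apart. WT TAC 3 and KO TAC 1 stood apart from the other TAC libraries, with 1.30% and 0.851% of counts in ribosomal protein genes. Both lay within the sham range of 0.630% to 1.69%, and the other TAC libraries had 3.14% to 6.66%. The animal numbers in the titles form separate runs in TAC and in sham, so surgery and a batch that follows those numbers cannot be told apart.

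Mt1 and Mt2 are neighbours on chromosome 8 of GRCm38, both on the plus strand, with Mt2 at chr8:94172664-94173568 and Mt1 at chr8:94179082-94180327 and 5513 bases between them. Their promoters are shown because both genes were higher after TAC and because metal response elements are the best known control sequences of metallothioneins. The sequences are from RefSeq on GRCm38.p6 and run from 250 bases before the RefSeq transcription start to 30 bases after it, and capitals mark matches to the metal response element core, searched as TGCACNC or TGCGCNC on both strands.

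Mt1, chr8:94178839-94179118, plus strand: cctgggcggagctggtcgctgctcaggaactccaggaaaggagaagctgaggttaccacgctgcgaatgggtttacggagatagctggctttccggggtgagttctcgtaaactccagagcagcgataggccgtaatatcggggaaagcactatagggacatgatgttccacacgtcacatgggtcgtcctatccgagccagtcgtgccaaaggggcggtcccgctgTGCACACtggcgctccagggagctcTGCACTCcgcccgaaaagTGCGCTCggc

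Mt2, chr8:94172368-94172647, plus strand: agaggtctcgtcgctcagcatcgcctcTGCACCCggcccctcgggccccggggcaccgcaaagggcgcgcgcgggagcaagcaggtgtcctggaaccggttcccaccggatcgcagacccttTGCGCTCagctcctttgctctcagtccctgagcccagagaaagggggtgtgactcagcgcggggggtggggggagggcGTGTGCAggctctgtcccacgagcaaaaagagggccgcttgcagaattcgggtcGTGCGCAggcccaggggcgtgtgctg

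The Mt1 window held 3 core matches, starting at positions -23, 2 and 20 from the RefSeq start (0 is that base). Only 1 window of Mt1 was supplied, so control sequence near any other Mt1 start is not shown. The Mt2 window held 4, starting at -223, -128, -50 and 4. The RefSeq start behind the Mt2 window lies 46 bases before the start of the Mt2 gene model given above and did not match the start of an annotated transcript, so the printed Mt2 sequence ends before that gene model begins. The Mt1 window starts from a base 7 bases inside its gene model. Of 32851 RefSeq promoter windows of 300 bases, 25.7% held at least 1 such match, 1.97% at least 3 and 0.517% at least 4. Mt2 also held TGACTCA, the AP-1 site, at -79, within a match to TGACNNNGC, the core of the antioxidant response element that NRF2 binds. The AP-1 letters were in 5.2% of windows and the antioxidant element core in 12.4%. Promoter windows were supplied for 8 of the 10 genes, Hmox1 and Sod3 being the others. The antioxidant element core had 1 match each in Sod1 and in 1 of 3 windows of Txnrd1, and the windows of Nqo1, Cat, Sod2 and Gpx3 did not contain these letters. The other genes lie, on GRCm38, at chr8:75093621-75100589 (Hmox1, plus strand), chr11:54902453-54910377 (Gpx3, plus), chr8:107388225-107403206 (Nqo1, minus), chr10:82833951-82897712 (Txnrd1, plus), chr16:90220754-90226329 (Sod1, plus), chr17:13006846-13040063 (Sod2, plus), chr5:52363791-52371418 (Sod3, plus) and chr2:103453849-103485160 (Cat, minus). A match to letters is a description of the sequence and was not tested as a binding site.

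Mt2 showed a larger change after TAC than Mt1 did, and the share of Mt2 in the pair was higher in every TAC library than in any sham library. Mt2 stood at 7.56 and 9.29 CPM among WT sham mice, at 8.06, 16.8 and 8.06 among KO sham mice, at 57.5, 54.3 and 75.7 among WT TAC mice, and at 33.0, 85.6 and 36.2 among KO TAC mice. The lowest TAC library lay above the highest sham library, which was KO sham 2. Over both genotypes Mt2 rose 5.71-fold, a log2 change of 2.51 ± 0.32 (SE; edgeR, adjusted p = 0.000270). The log2 change was 2.89 ± 0.50 in WT (adjusted p = 0.00770) and 2.23 ± 0.41 in KO (adjusted p = 0.0104). The WT call was lost without WT sham 1 (2.75) or WT sham 2 (3.03), and the KO call without KO sham 1 (2.05) or KO sham 3 (2.04). An antisense gene, Gm45774, shares 432 exon bases with Mt2. No source used here gives the strand setting of the counting, and without strand the reads of the overlapping genes cannot be told apart, so the Mt2 counts may include reads of Gm45774, which was not analysed here.

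Mt1 stood at 64.5 and 57.9 CPM among WT sham mice, at 58.6, 91.2 and 58.1 among KO sham mice, at 91.2, 109.6 and 124 among WT TAC mice, and at 87.4, 139 and 103 among KO TAC mice. KO sham 2 reached the range of the TAC libraries, and was the highest sham library for Mt2 and Hmox1 as well. Its title is also the only sham title that ends in F. Over both genotypes Mt1 rose 1.66-fold (log2 change 0.73 ± 0.20, edgeR, adjusted p = 0.0196), and it was not called in WT (0.82 ± 0.31, adjusted p = 0.124) or in KO (0.66 ± 0.27, adjusted p = 0.204). The call over both genotypes was lost without WT sham 1 (0.74), WT sham 2 (0.69), KO sham 3 (0.68) or KO TAC 2 (0.65).

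Per kilobase of the principal transcript (549 bases for Mt1 and 511 for Mt2), Mt1 stood 5.04 to 7.94 times above Mt2 in the 5 sham libraries and 1.48 to 2.65 times in the 6 TAC libraries. Mt2 made up 11.2% to 16.5% of the summed level per kilobase of the pair in sham and 27.4% to 40.4% in TAC. In the TAC libraries, Mt2 made up 40.4%, 34.8% and 39.6% among WT mice and 28.8%, 39.8% and 27.4% among KO mice. The WT and KO ranges after TAC overlap through KO TAC 2. The sum of both genes was 122 to 199 CPM per kilobase in sham and 224 to 421 in TAC.

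**Figure D1:**
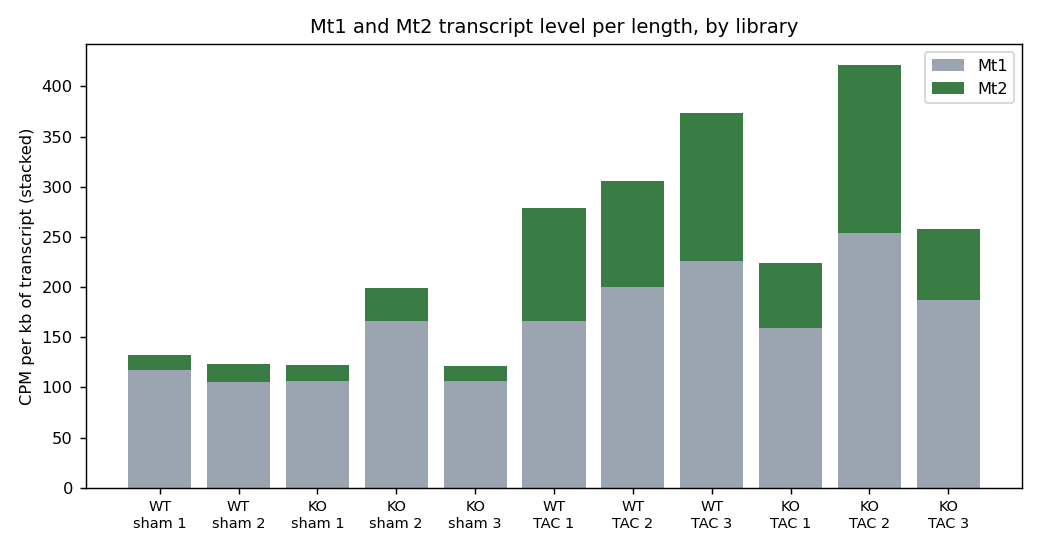
Level of Mt1 (grey) and Mt2 (green), stacked, in CPM per kilobase of transcript (vertical axis) in each of the 11 libraries (horizontal axis). Mt2 makes up 11.2% to 16.5% of each sham bar and 27.4% to 40.4% of each TAC bar.

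Hmox1, which degrades heme to biliverdin, iron and carbon monoxide, was low in sham hearts and higher in every TAC library. It stood at 5.25 and 5.90 CPM among WT sham mice, at 5.10, 6.40 and 4.45 among KO sham mice, at 40.3, 66.8 and 15.8 among WT TAC mice, and at 19.5, 25.8 and 11.9 among KO TAC mice. The sham libraries lay close together and below all TAC libraries, and the TAC libraries differed more among themselves. Hmox1 rose 4.90-fold over both genotypes (log2 change 2.29 ± 0.38, edgeR, adjusted p = 0.00125), with log2 changes of 2.88 ± 0.55 in WT (adjusted p = 0.0126) and 1.84 ± 0.46 in KO (adjusted p = 0.0389). The WT call was lost without WT sham 1 (2.79) or WT sham 2 (2.95), and the KO call was lost when any single sham library of either genotype, or WT TAC 1, or KO TAC 2 was left out, with log2 changes of 1.59 to 2.00. The KO call was also lost with limma-voom (1.77) and with the last letter of the titles as a covariate (1.81), and both calls with only the libraries whose titles end in M (2.89 in WT and 2.26 in KO). Hmox1 is abundant in macrophages. The summed macrophage and monocyte markers came to 2196, 2505 and 459 CPM among WT TAC mice and 549, 1197 and 1585 among KO TAC mice. WT TAC 2 was highest for Hmox1 and for the marker sum. KO TAC 3 had the lowest Hmox1 of the TAC libraries and the third highest marker sum. Of these sums, Lyz2 alone gave 1789, 1847 and 196 CPM among WT TAC mice and 191, 772 and 1152 among KO TAC mice. The spread of the sums among TAC libraries therefore rests largely on 1 gene. No macrophage and monocyte marker was at 0 in any library, and the part of macrophage RNA in the Hmox1 values was not tested.

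Gpx3, the secreted glutathione peroxidase of plasma, was higher in every TAC library than in any sham library. It stood at 148 and 129 CPM among WT sham mice, at 129, 144 and 124 among KO sham mice, at 819, 1383 and 691 among WT TAC mice, and at 200.5, 876 and 752 among KO TAC mice. KO TAC 1 was far below the other TAC libraries but above all sham libraries. Gpx3 rose 5.52-fold over both genotypes (log2 change 2.46 ± 0.36, edgeR, adjusted p = 0.000587), by 2.80 ± 0.57 on the log2 scale in WT (adjusted p = 0.0156) and by 2.20 ± 0.47 in KO (adjusted p = 0.0208). Its WT call was lost without WT sham 1 (2.90) or WT sham 2 (2.69), and its KO call without KO sham 1 (2.19), KO sham 2 (2.27), KO sham 3 (2.16), KO TAC 2 (1.83) or KO TAC 3 (2.02). With M titles only both calls were lost.

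**Figure D2:**
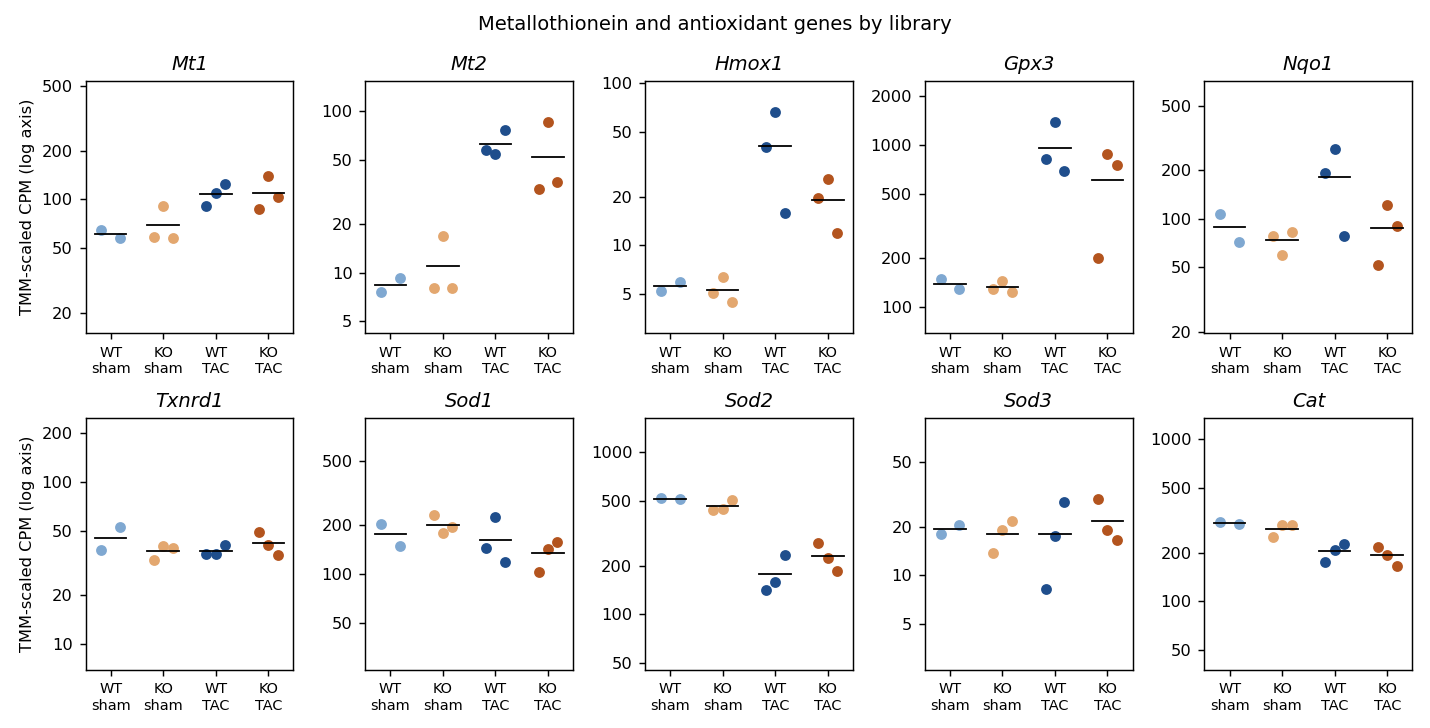
TMM-scaled CPM on a log axis (vertical) of the 10 genes in each library, by group (horizontal), with a bar at the group mean. The TAC and sham libraries do not overlap for Mt2, Hmox1, Gpx3, Sod2 and Cat. How many of all tested genes show no overlap was not counted.

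Nqo1, which reduces quinones by transfer of an electron pair, and Txnrd1, which keeps cytosolic thioredoxin reduced, are NRF2 targets like Hmox1, and neither was called with surgery. Nqo1 stood at 107 and 71.6 CPM among WT sham mice, at 77.7, 59.7 and 82.9 among KO sham mice, at 191, 270.1 and 77.7 among WT TAC mice, and at 51.6, 122 and 89.7 among KO TAC mice. WT TAC 1 and 2 were high, while WT TAC 3 and all KO TAC libraries except KO TAC 2 lay within the sham range or below it. The log2 change was 1.01 ± 0.49 in WT (edgeR, adjusted p = 0.214), 0.26 ± 0.42 in KO (adjusted p = 0.826) and 0.59 ± 0.33 over both genotypes (adjusted p = 0.233). Without WT TAC 3 the WT change was 1.37 and was called. Txnrd1 was 32.9 to 52.2 CPM in sham and 35.4 to 48.7 in TAC, and its log2 change over both genotypes was -0.03 ± 0.17 (adjusted p = 0.919), with a sign that changed between settings. Of the 10 genes, Txnrd1 had the smallest ratio of its highest to its lowest library.

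Among the superoxide dismutases, Sod2, the mitochondrial manganese enzyme, was lower in every TAC library than in any sham library, while Sod1, the cytosolic copper and zinc enzyme, and Sod3, the extracellular one, overlapped between surgeries. Sod2 stood at 525 and 513 CPM among WT sham mice, at 440.0, 449 and 507 among KO sham mice, at 142, 158 and 232 among WT TAC mice, and at 275, 224 and 186 among KO TAC mice. It fell over both genotypes, from a mean of 487 to 203 CPM (log2 change -1.26 ± 0.20, edgeR, adjusted p = 0.00109), and fell in WT (-1.55 ± 0.30, adjusted p = 0.0122). The change in KO was -1.03 ± 0.27 with an adjusted p of 0.0504. The WT call was lost without WT TAC 2 (-1.46), or when WT sham 1 (-1.53) or WT sham 2 (-1.58) was left out, and with library totals (-1.21), with M titles only (-1.39) and with only the groups compared (-1.55). In KO, Sod2 was called in 9 of 22 other settings, with log2 changes of -1.21 to -0.90. These were DESeq2, its size factors, limma-voom, the stricter count filter, the ribosomal protein share as covariate, and leaving out WT TAC 1, WT TAC 3, KO TAC 1 or the last 2 together. Of the 50-base words of the Sod2 transcripts 21% also occur in transcripts of 415 other genes, so its count depends on how reads with several alignments were treated, which no source used here gives. The mitochondrially encoded share of counts was 32.8% to 49.4% in sham and 13.2% to 35.9% in TAC, and its relation to Sod2 was not tested.

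Sod1 stood at 203 and 149 CPM among WT sham mice, at 231, 180.4 and 195 among KO sham mice, at 145, 224 and 119 among WT TAC mice, and at 103, 143 and 158 among KO TAC mice. WT TAC 2 and KO TAC 3 lay inside the sham range, and the log2 change over both genotypes was -0.38 ± 0.22 (edgeR, adjusted p = 0.253). The Sod1 transcripts share 3.42% of their 50-base words with a single other gene, Gm8566. Sod3 was 13.7 to 21.5 CPM in sham and 8.28 to 29.6 in TAC, with a log2 change over both genotypes of 0.10 ± 0.28 (adjusted p = 0.835). Its lowest and highest libraries, WT TAC 1 and KO TAC 1, were both TAC libraries. The level of Sod2 per kilobase was 17.1% to 26.9% of the sum of the 3 enzymes in sham and 7.05% to 21.8% in TAC, where KO TAC 1 had the highest share. That share depends on the transcript length taken for each gene.

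Cat encodes the peroxisomal enzyme that splits hydrogen peroxide. It stood at 309.7 and 300.3 CPM among WT sham mice, at 249.8, 298 and 298 among KO sham mice, at 176, 209 and 226 among WT TAC mice, and at 217, 194 and 167 among KO TAC mice. Sham and TAC did not overlap. Cat fell 1.48-fold over both genotypes (log2 change -0.56 ± 0.16, edgeR, adjusted p = 0.0277) and was not called in WT (-0.58 ± 0.26, adjusted p = 0.178) or KO (-0.55 ± 0.23, adjusted p = 0.221). The call over both genotypes was lost without WT sham 1 (-0.55), WT sham 2 (-0.57), KO sham 2 (-0.55), KO sham 3 (-0.55), KO TAC 2 (-0.55) or KO TAC 3 (-0.50), and with scaling by library totals (-0.16), with no low count filter (-0.57), with M titles only (-0.43) and with the ribosomal protein share as covariate (-0.44).

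In counts, over both genotypes 4 of the 10 genes rose, against 10.6% of all tested genes, and 2 fell, against 8.96%. The genes were chosen with earlier results of these data known, so these shares describe them and do not test them as a set. In WT 3 rose (3.88% of all tested genes) and 1 fell (3.04%). In KO 3 rose (3.32%) and 0 fell (1.37%), and 6 of the 10 had an unadjusted p under 0.05 in each genotype, against 25.8% of all tested genes in WT and 19.3% in KO. The fit over both genotypes uses the same libraries as the other 2 comparisons. Median log2 changes of the 10 genes were 0.36 in WT, 0.26 in KO and 0.34 over both genotypes, and the medians of all tested genes were 0.05, 0.03 and 0.05. The comparison in WT rests on 2 sham libraries. Without WT sham 1, 0 of the 10 genes and 30 genes in all were called in WT by edgeR, and without WT sham 2 these counts were 0 and 88. In KO 0 of the 10 were called without KO sham 1 or KO sham 3, where 1.55% and 1.75% of all tested genes were. Without KO sham 2 or KO TAC 2, 1 was called, against 2.15% and 2.14% of all tested genes. Leaving out WT TAC 3 and KO TAC 1 together gave 5 called in WT and 4 in KO, where 30.5% and 14.7% of all tested genes were called. That setting drops the TAC libraries whose ribosomal protein share lay in the sham range.

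**Figure D3:**
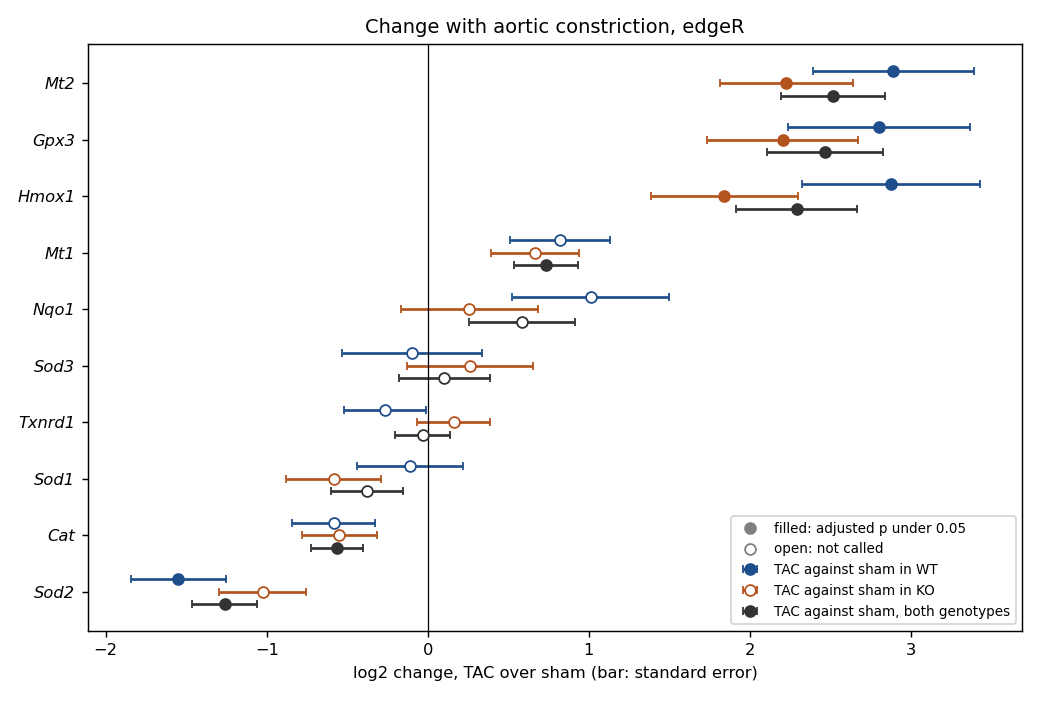
Log2 change from sham to TAC (horizontal axis) with its standard error for each gene (vertical axis) in WT, in KO and over both genotypes, filled where the edgeR adjusted p was under 0.05. Mt2, Gpx3 and Hmox1 are filled in all 3 comparisons, and Sod2 misses the threshold in KO.

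The order of the genes by level per kilobase of transcript also differed with surgery. It depends on the lengths taken, which were 641 bases for Sod1 and 5861 for Sod2. By mean CPM, without division by length, Sod2 (487) stood above Sod1 (192) in sham. Which transcripts the hearts used was not measured. In the 5 sham libraries Sod1 was highest, at 299 ± 47.0 CPM per kilobase (mean ± SD), and overlapped with none of the others. Mt1 (120.4 ± 26.1) and Cat (111 ± 9.04) overlapped and came next. Gpx3 (84.6 ± 6.66) and Sod2 (83.0 ± 6.69) overlapped with each other and lay above Nqo1 (51.3 ± 11.2). Mt2 (19.5 ± 7.62) overlapped with Txnrd1 (12.1 ± 2.15), and Sod3 (4.97 ± 0.81) with Hmox1 (3.45 ± 0.48). In the 6 TAC libraries Gpx3 was highest (494 ± 238), followed by Sod1 (232 ± 65.6), Mt1 (199 ± 36.05), Mt2 (112 ± 40.9), Nqo1 (86.1 ± 53.0), Cat (75.8 ± 8.97), Sod2 (34.6 ± 8.52), Hmox1 (19.1 ± 13.1), Txnrd1 (11.9 ± 1.55) and Sod3 (5.31 ± 2.13). Neighbours in that order overlapped, except that Cat lay above Sod2 and Txnrd1 above Sod3 in every TAC library.

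Differences by genotype were smaller than those by surgery for the genes that changed, and none was called. In KO against WT after sham the log2 differences ran from -0.28 for Nqo1 to 0.39 for Mt2, and 0 of the 10 genes were called, as were 0% of all tested genes. After TAC the log2 difference of KO from WT was -1.10 ± 0.44 for Hmox1 and -1.03 ± 0.43 for Nqo1, each with an edgeR adjusted p of 0.747 and an unadjusted p under 0.05. The WT and KO TAC libraries overlapped for both genes, and WT TAC 3 lay among the KO values of each. The other 8 genes had unadjusted p-values above 0.05, with differences from -0.66 ± 0.45 for Gpx3 to 0.37 ± 0.27 for Sod2. Again 0 genes were called, and 0% of all tested genes. The interaction, which tests whether the effect of TAC differs between genotypes, was -1.04 ± 0.67 for Hmox1, -0.67 ± 0.60 for Mt2, -0.60 ± 0.68 for Gpx3 and 0.52 ± 0.40 for Sod2, with 0 genes called (0% of all tested genes) and adjusted p-values of at least 0.992. At an unadjusted p under 0.05, edgeR gave 0, 2 and 0 of the 10 genes in these 3 comparisons and 185, 930 and 434 of all tested genes. DESeq2 called 2, 12 and 2 genes in all, and limma-voom 0 in each. That Sod2 passed the threshold for surgery in WT and not in KO is therefore not shown to be a difference between genotypes, and a p that misses the threshold does not show that the genotypes respond alike.

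A further 145 genes of related pathways were grouped into 8 lists by function, and 138 of them were tested. The lists too were chosen with earlier results of these data known. Over both genotypes 13 rose (9.42%, against 10.6% of all tested genes) and 23 fell (16.7%, against 8.96%). In WT 7 rose and 10 fell (5.07% and 7.25%, against 3.88% and 3.04%), and in KO 5 rose and 7 fell (3.62% and 5.07%, against 3.32% and 1.37%). The share that rose was near that of all tested genes in each comparison. The median log2 change of all tested genes was 0.05, and scaling by library totals raised it to 0.45 and the share of all tested genes that rose to 24.5%, with 2.63% that fell. Without WT TAC 3 and KO TAC 1, 18.7% of all tested genes rose and 19.1% fell, and the lists had more calls too. In that setting 5 of 13 genes of the heme and iron list rose, as did 7 of 20 of the glutathione list, 4 of 19 of the thioredoxin list and 2 of 13 of the metal handling list, while 8 of 22 regulators fell.

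Of the list of metal handling, which holds the metal sensor Mtf1, the third metallothionein Mt3 and zinc and copper transporters, 0 of 13 tested genes were called by edgeR over both genotypes, with a median of 0.20. At an unadjusted p under 0.05 there were 3, against 33.2% of all tested genes, and DESeq2 called 1. Mtf1 had a log2 change of -0.56 ± 0.23 (adjusted p = 0.106) and Slc30a1, the zinc exporter that MTF1 also induces, -0.27 ± 0.23 (adjusted p = 0.457). Mt1 and Mt2 are not counted in it.

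Of the heme and iron list, 2 of 13 fell (15.4%, against 8.96% of all tested genes) and 0 rose, with a median of 0.09 that turned to -0.21 with the ribosomal protein share as covariate. The genes that fell, Cpox (-1.08 ± 0.32) and Fech (-0.53 ± 0.17), encode enzymes of the last steps of heme synthesis. The Cpox call was lost without WT sham 1 (-1.01), WT sham 2 (-0.98), KO sham 3 (-1.01), WT TAC 1 (-0.95), WT TAC 2 (-0.90) or KO TAC 2 (-1.03), and in 3 other settings, and the Fech call without any of 9 single libraries, all except WT TAC 2 and KO TAC 3 (-0.57 to -0.48). The ferritin chain genes Fth1 (-0.13 ± 0.26) and Ftl1 (0.73 ± 0.32) were not called.

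Among glutathione peroxidases and enzymes of the glutathione cycle 2 of 20 rose and 1 fell (10% and 5%, against 10.6% and 8.96% of all tested genes), with a median of 0.24. Gpx7, a peroxidase of the endoplasmic reticulum, rose 3.00-fold, from 4.80 to 9.73 CPM in sham to 12.0 to 30.3 in TAC. Gpx1, the cytosolic peroxidase, was 34.2 to 135 CPM in sham and 52.7 to 631 in TAC. Its TAC libraries were widely spread, with WT TAC 3 (107) and KO TAC 1 (52.7) inside the sham range. Gpx1 rose by 1.95 ± 0.61 on the log2 scale (edgeR, adjusted p = 0.0398), a call lost in 12 of 21 other settings, among them each single library left out except KO sham 1, WT TAC 3 and KO TAC 1 (1.59 to 2.02). Oplah, which recycles 5-oxoproline, fell 2.12-fold, a call lost without WT sham 1 (-1.01), with library totals and with M titles only.

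Of the thioredoxins and peroxiredoxins 0 of 19 rose and 2 fell, a share of 10.5% against 8.96% of all tested genes. The median of -0.09 turned to 0.31 with library totals, to 0.034 without KO sham 2, to 0.064 without KO TAC 1 and to 0.023 without WT TAC 3 and KO TAC 1. Msrb2, a mitochondrial methionine sulfoxide reductase, fell 1.79-fold and Txnrd2, the mitochondrial thioredoxin reductase, 1.57-fold. The Msrb2 call was lost without WT sham 1 (-0.69) and with library totals. The Txnrd2 call was lost in 13 of 21 settings, among them each single library left out except WT TAC 2 and KO TAC 1 (-0.70 to -0.58), while Txnrd2 was lower in every TAC library than in any sham library.

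Of the glutathione transferases and quinone or aldehyde detoxification enzymes 9 of 27 fell (33.3%, against 8.96% of all tested genes) and 2 rose (7.41%, against 10.6%), with a median of -0.50. With library totals the median was -0.12 and 5 fell, where 2.63% of all tested genes did. Gstk1, the mitochondrial and peroxisomal glutathione transferase, fell 3.38-fold, from 76.1 to 97.3 CPM in sham to 20.2 to 30.5 in TAC. Gstm7 fell 2.99-fold and Aldh2, the mitochondrial aldehyde dehydrogenase, 2.47-fold. Neither overlapped between surgeries, and the calls of all 3 held in 21 of 21 other settings. The other genes that fell were Gstm1, Gstt1, Nqo2, Ephx2, Akr1b3 and Akr7a5, and those that rose were the aldo-keto reductase Akr1b8 (4.24-fold) and Ugdh (2.17-fold), named after their values were seen. The calls of Nqo2, Ephx2, Akr1b3 and Akr7a5 were lost with library totals.

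Of the genes that supply NADPH, the electron donor of glutathione and thioredoxin reductases, 3 of 10 fell (30%, against 8.96% of all tested genes) and 0 rose, with a median of -0.18 that turned to 0.22 with library totals, where 1 fell. The genes that fell are mitochondrial. Idh2, the NADP-dependent isocitrate dehydrogenase, fell 2.24-fold, from 1769 to 2557 CPM in sham to 662 to 1162 in TAC, and was called in 21 of 21 other settings. Nnt, the transhydrogenase of the inner membrane, fell 2.53-fold and the malic enzyme Me3 1.56-fold. The Nnt call was lost with library totals and with M titles only, and the Me3 call without WT sham 1 (-0.59), KO sham 1 (-0.56) or KO TAC 2 (-0.61), with library totals and with no low count filter.

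Among regulators of the antioxidant and metal response 3 of 22 rose and 3 fell, 13.6% each against 10.6% and 8.96% of all tested genes. The median of -0.30 turned to 0.13 without KO sham 2, to 0.10 with library totals, to 0.19 with M titles only and to 0.096 with the ribosomal protein share as covariate. Fkbp5, a chaperone cofactor that glucocorticoids induce, measured 5.19 to 21.3 CPM in sham and 24.8 to 71.5 in TAC and rose 4.45-fold (log2 change 2.15 ± 0.37, edgeR, adjusted p = 0.00172). Its highest sham library was KO sham 2, as for Mt1 and Mt2. Another glucocorticoid-induced gene, Tsc22d3, had a log2 change of 0.89 ± 0.40 (adjusted p = 0.141), and Zbtb16 and Per1, also induced by glucocorticoids, had -0.31 ± 0.39 and -0.46 ± 0.44. Hif1a, the oxygen-regulated transcription factor, rose 1.83-fold and Socs3, the feedback inhibitor of cytokine signalling, 2.37-fold. The Hif1a call was lost without WT sham 1 (0.73), WT sham 2 (0.85) or KO TAC 2 (0.77), and the Socs3 call without WT sham 1 (1.17) or WT sham 2 (1.20). Nfe2l2, which encodes NRF2, was not called (0.30 ± 0.17, adjusted p = 0.242). The genes that fell, named after their values were seen, were Nfe2l1, Keap1 and Bach1, the last a repressor of Hmox1 (-0.64 ± 0.21, adjusted p = 0.0480). Their calls were lost in 9, 16 and 15 of 21 other settings. The Nfe2l1 call was lost without either WT sham library, KO sham 2, WT TAC 2, KO TAC 2 or KO TAC 3 (-0.75 to -0.65), the Keap1 call without any of 10 single libraries, all except KO TAC 1 (-0.56 to -0.41), and the Bach1 call without any of 9, all except KO sham 3 and KO TAC 1 (-0.71 to -0.51).

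The oxidases that produce superoxide or peroxide had the highest median of the 8 lists, 0.69 (1.09 with library totals), with 6 of 14 that rose (42.9%, against 10.6% of all tested genes) and 3 that fell (21.4%, against 8.96%). Nox4, a superoxide and peroxide producing NADPH oxidase, measured 0.371 to 1.81 CPM in sham and 3.19 to 28.8 in TAC and rose by 3.87 ± 0.58 on the log2 scale (edgeR, adjusted p = 0.000682). Its TAC libraries differed among themselves, KO TAC 1 being lowest and KO TAC 3 highest. Rac2, the small GTPase of the phagocyte oxidase, rose 3.08-fold. Cybb, which encodes the catalytic subunit of that oxidase, rose 2.56-fold and was named after its values were seen. Rac2 and Cybb are genes of leukocytes. Among TAC libraries Rac2 stood at 3.22, 5.14 and 5.19 CPM in WT and at 6.96, 8.61 and 6.12 in KO. The macrophage and monocyte marker sums of the same libraries are given with Hmox1 above, and Lyz2 weighed heavily in them. The part of leukocyte RNA in these values was not tested. Maob, a mitochondrial monoamine oxidase, fell 3.55-fold.

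**Figure D4:**
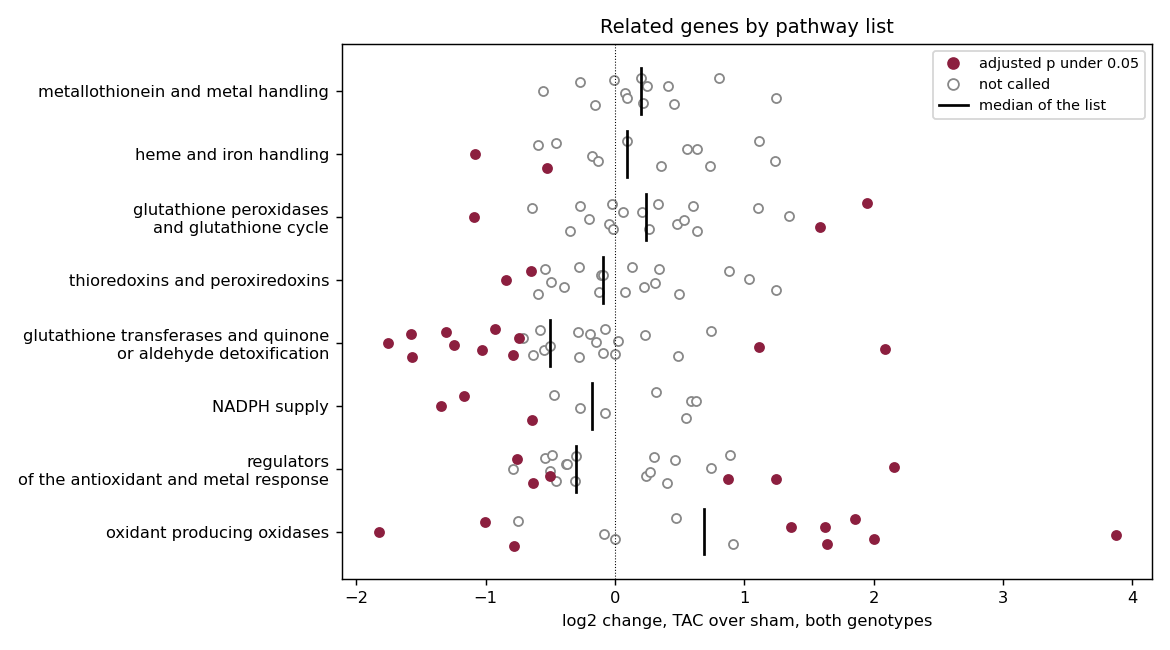
Log2 change from sham to TAC over both genotypes (horizontal axis) of each tested gene of the 8 lists (rows), filled where the edgeR adjusted p was under 0.05, with a bar at the median of the list. The medians run from -0.50 for glutathione transferases and detoxification enzymes to 0.69 for the oxidases.

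The tested genes with profiles most like those of Mt1, Mt2 and Hmox1 were found by the root mean square (RMS) difference of centred log2 CPM over the 11 libraries, among 13177 genes. For Mt2 they were Dpysl3 (0.30), the stress-induced Nupr1 (0.40) and the secreted chaperone clusterin, Clu (0.41). For Hmox1 they were S100a11 (0.39), the lysosomal protease cathepsin S, Ctss (0.40), and Mettl27 (0.41), and for Mt1 they were Gcnt2 (0.17), the integrin subunit Itgb5 (0.18) and Dact3 (0.19). Mt1 and Mt2 differed from each other by 0.92, more than Mt2 differed from Gpx3 (0.59) or from Hmox1 (0.68). A gene with a small change across libraries, such as Mt1, has close neighbours more readily on this measure, so the values are descriptions within each gene.

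**Figure D5:**
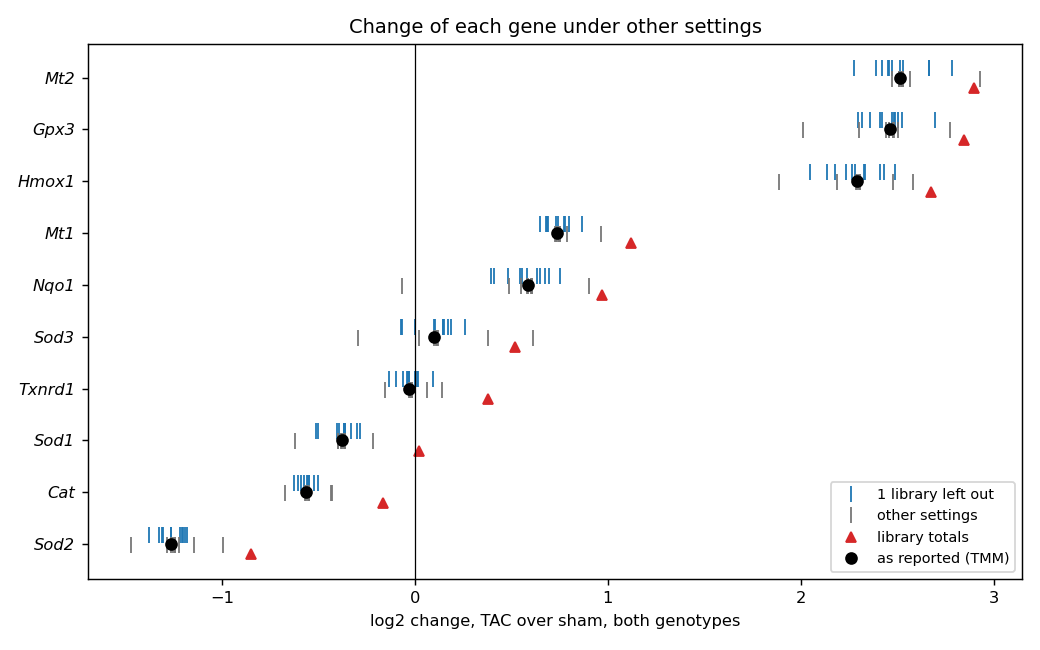
Log2 change from sham to TAC over both genotypes (horizontal axis) of each gene (vertical axis) as reported and under other settings of the analysis. Mt2, Gpx3, Hmox1 and Mt1 stay above 0 and Sod2 and Cat below 0 in each setting drawn, while marks of Nqo1, Sod3, Txnrd1 and Sod1 lie on both sides.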

How the data were processed

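The authors deposited raw counts per gene for 11 libraries, 1 column each, with total counts of 1.48e+07 to 1.73e+07. Per the submitters' processing notes they used STAR 2.5.1, featureCounts and DESeq2 with GRCm38, and no source used here gives the roles of the tools, the strand setting or the treatment of multiply aligned reads. All columns were used (0 left out). All titles begin with TAC, so surgery came from the treatment label. Nothing in the labels pairs the samples, and p-values judge differences against the spread between these libraries.

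Genes were kept by filterByExpr (14619 of 46517) and libraries were scaled by TMM. Tests were edgeR 4.0.16 quasi-likelihood tests in R 4.3.3. Comparisons within a genotype or a surgery, and the interaction, came from a group-means model of the 11 libraries (7 residual degrees of freedom). Changes over both genotypes came from a separate additive model of the same libraries, with terms for surgery and genotype. P-values are 2-sided and Benjamini-Hochberg adjusted over all tested genes within a comparison, with a threshold of 0.05. Standard errors are approximate, from the log2 change and the F statistic. At this depth 3 counts equal 0.143 to 0.278 CPM. Levels per kilobase use the principal transcript of GENCODE M21. On simulated counts for TAC against sham over both genotypes (14258 genes), 80% of 4-fold and 19% of 2-fold changes were recovered. For TAC against sham in WT on the same 14258 genes these shares were 28% and 1%, and in KO 53% and 3%. The simulated counts were drawn independently for each gene, with 100 genes changed at each fold. They held no library differences shared by many genes, so the shares may not hold for the real libraries.

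The members and pathway lists were chosen with earlier results of these data known. Named from each list were up to 3 called genes with the smallest p over both genotypes, and for Mt1, Mt2 and Hmox1 the 3 genes nearest in profile. Other listed genes were named after their values were seen. Not every listed gene is reported here. Alternatives were library totals, DESeq2 1.42.0 and its size factors, limma-voom (limma 3.58.1), other filters, covariates for the title letter and ribosomal protein share, libraries whose titles end in M, only the groups compared, and libraries left out.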

Additional observations from a re-analysis of the deposited data

How the results depend on the processing

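There were 22 alternatives (11 with 1 library left out, 11 others), 21 of them for results over both genotypes and the interaction. The calls of Mt2 (2.28 to 2.93), Hmox1 (1.89 to 2.68), Gpx3 (2.01 to 2.84) and Sod2 (-1.47 to -0.85) over both genotypes held in 21 of 21. With only libraries whose titles end in M, 1 of the 10 genes was called in WT and 1 in KO, Mt2 in each case. Of all tested genes 1.44% and 0.719% were called there. With 1 library left out, the number called ran from 0 to 5 in WT and from 0 to 4 in KO. The share of all tested genes called ran from 0.193% to 18.4% in WT and from 1.55% to 6.87% in KO. Signs turned for changes that were not called. With the ribosomal protein share as covariate Nqo1 was -0.13 in KO and -0.067 over both genotypes, and Txnrd1 was 0.14. With library totals Sod1 was 0.020 and Txnrd1 0.38 over both genotypes, with M titles only Txnrd1 was 0.061, and without WT TAC 3 and KO TAC 1 Sod3 was -0.30. With 1 library left out, Nqo1 in KO ran from -0.056 to 0.50, and over both genotypes Txnrd1 ran from -0.13 to 0.10 and Sod3 from -0.075 to 0.26. Sod3 was called with the ribosomal share as covariate (0.61), Nqo1 over both genotypes with library totals (0.97) and without WT TAC 3 and KO TAC 1 (0.90), and Mt1 in KO with library totals (1.10). The causes were not tested.

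Counts of all genes called moved more. In WT, 1011 became 2091 with DESeq2, 2243 without a count filter, 608 with the title letter as covariate, 204 with M titles only, 465 with only the groups compared, 533 with the ribosomal share as covariate and 4374 without WT TAC 3 and KO TAC 1. In KO, 687 became 1385 with library totals, 1370 with DESeq2, nearly as many without a filter, 102 with M titles only, 1438 with the ribosomal share and 2117 without WT TAC 3 and KO TAC 1. Over both genotypes, 2855 became 1526 with M titles only and 5436 without those libraries. Single libraries moved these counts as well, in WT to 30 and 88 without WT sham 1 or 2, 658 without KO sham 3, 398 and 363 without WT TAC 1 or 2 and 2663 without WT TAC 3, in KO to 226, 312 and 255 without KO sham 1, 2 or 3 and 309 and 389 without KO TAC 2 or 3, and over both genotypes to 1672 and 1886 without WT sham 1 or 2. With library totals the split of higher and lower calls went from 567 and 444 to 1044 and 133 in WT, from 486 and 201 to 1325 and 60 in KO, and from 1545 and 1310 to 3577 and 385 over both genotypes. The 3 genotype comparisons, with 0 calls, gave 20, 206 and 80 without a filter. No paired analysis was possible because the labels give no shared replicate numbers.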
